A study of Drosophila melanogaster with 2 samples.

Results

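Of the 7055 optimal binding sites of GFP-tagged Sox102F, 634 (8.99%) lay in intergenic sequence at a middle distance from genes, outside every annotated gene body and more than 1 kb but at most 5 kb from the nearest annotated transcription start. They were chosen by position alone: the summit of each peak in the optimal list on genome build dm6 was placed on the gene annotation, with transposable elements left out of it. For comparison, 3299 summits lay within 1 kb of a start, 1429 lay in introns 1 to 5 kb from a start, 1148 lay in introns beyond 5 kb, 440 were intergenic beyond 5 kb, and 105 were exonic beyond 1 kb. The data are chromatin immunoprecipitation followed by sequencing (ChIP-seq) on whole white prepupae of Drosophila melanogaster, males and females pooled. The single group has 2 biological replicates, numbered 1 and 4, of the transgenic strain Sox102F-GFP, which stably expresses Sox102F with GFP at its C terminus. The description names an antibody against GFP, while the antibody field names Sox102F, so the labels differ on this point. Other genotypes, other stages and an untagged line were not analysed here, so there is no contrast of conditions and no test over samples. All comparisons below are descriptions, and intervals are 95% Wilson intervals over regions, which cover counting error alone and treat neighbouring regions as independent.

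Sox102F is the fly member of the SoxD group of SOX proteins, which bind the minor groove of DNA through an HMG domain and bend it. The SOX core word is ACAAT, often extended to AACAAT. The white prepupa is the short immobile stage at the onset of metamorphosis, when a pulse of the steroid hormone ecdysone starts the death of larval tissues and the growth of adult structures from imaginal discs. Intergenic sequence a few kb from a start is where many enhancers of fly developmental genes lie, although position alone does not make a region an enhancer. A whole animal holds all tissues at once, so a weak peak can be a site bound in few cells or a site bound weakly in many, and these cannot be told apart here. A peak list holds no transcript levels, so the labelled stage could not be checked against marker genes.

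The strongest of these intergenic sites are shown first, because their letters can be set beside the word counts given later. The lines give, for the members ranked 1 to 7 and 9 by signal, the flanking protein-coding genes and the 101 bases centred on the summit, read from the plus strand of dm6, 5′ to 3′. Capitals mark ACAAT or its reverse complement.
COX7AL2/CG31668, chr2L:2202360-2202460: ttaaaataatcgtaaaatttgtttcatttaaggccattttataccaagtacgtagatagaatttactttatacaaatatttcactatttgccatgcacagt
CG43245/CG12523, chr3L:10776511-10776611: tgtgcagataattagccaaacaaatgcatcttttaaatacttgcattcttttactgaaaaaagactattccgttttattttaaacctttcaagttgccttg
COX7AL2/CG31668, chr2L:2199319-2199419: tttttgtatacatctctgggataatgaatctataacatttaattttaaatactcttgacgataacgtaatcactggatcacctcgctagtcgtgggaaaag
hng3/CG13898, chr3L:802851-802951: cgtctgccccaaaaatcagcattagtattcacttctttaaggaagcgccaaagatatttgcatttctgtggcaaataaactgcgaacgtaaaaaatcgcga
yata/kay, chr3R:29763306-29763406: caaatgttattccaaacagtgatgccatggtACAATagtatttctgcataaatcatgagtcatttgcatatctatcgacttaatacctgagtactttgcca
E(spl)mbeta-HLH/E(spl)malpha-BFM, chr3R:26009031-26009131: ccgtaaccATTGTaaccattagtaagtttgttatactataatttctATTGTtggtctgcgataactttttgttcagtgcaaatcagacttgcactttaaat
CG7573/CG6168, chr3L:11318911-11319011: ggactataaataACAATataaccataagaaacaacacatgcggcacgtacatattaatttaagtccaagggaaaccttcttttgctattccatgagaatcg
Sol1/Cyp9f2, chr3R:12403083-12403183: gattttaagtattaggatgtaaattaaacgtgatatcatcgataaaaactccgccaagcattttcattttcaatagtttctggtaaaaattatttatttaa
Of these 8 windows, 3 held an ACAAT word: the site upstream of kay held 1, the site between the 2 E(spl) genes held 2, and the site between CG7573 and CG6168 held 1. The 4 strongest windows held none. All 8 were rich in A and T, from 60.4% beside CG13898 to 75.2% between Sol1 and Cyp9f2.

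The strongest intergenic site lay on arm 2L between COX7AL2 and CG31668, with its summit at 2202410. Its signal, the authors' own value for each peak, in a scale not stated, was 1609 in the optimal list, 753.4 in the replicate 1 list and 846.8 in the replicate 4 list. The same 5808 bp gap held 5 members, among them the third strongest at 2199369, with 1065 in the optimal list, 522.6 in replicate 1 and 533.8 in replicate 4. Both libraries thus had 2 tall peaks in this short gap. The 3 lower members there had optimal signals of 245.2, 205.3 and 82.8, and the last of them had an entry within 100 bp in replicate 1 (47.7) and none in replicate 4. The second strongest site, between CG43245 and CG12523 on 3L, had 1238, 650.6 and 583.7 in the same order. The fourth lay 1150 bp from the start of CG13898 on 3L and had 1005, 562.9 and 446.0.

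Regulators known from development were among the next strongest. The fifth site lay 2639 bp upstream of kay, which encodes the Fos subunit of the AP-1 transcription factor, with a signal of 935.4, against 510.006 in replicate 1 and 437.0 in replicate 4. The sixth lay between E(spl)mbeta-HLH, a basic helix-loop-helix repressor gene, and E(spl)malpha-BFM, a Bearded family gene, both classical targets of Notch, with 877.1, 382.6 and 482.6. Site 11 was in the 22682 bp gap between Eaf6 and Blimp-1, a zinc finger repressor gene induced by ecdysone that times prepupal development, with 682.6, 300.9 and 372.9. Site 13 lay 1458 bp upstream of lola, a BTB zinc finger gene, with psq on the other side, with 654.8, 288.7 and 373.3. Site 20 lay 3680 bp upstream of ex, a gene of the Hippo growth pathway, with BBS8 on the other side, and had 577.9, 281.8 and 280.4. In each of these sites both replicates had an entry.

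The other sites of the top 20 lay between CG7573 and CG6168, CG3092 and yip3, Sol1 and Cyp9f2, CG7320 and CheA75a, Sin1 and Achl, glec and lsn, CG18404 and heca, blw and the cyclin gene CycB, CG11550 and CG42693, the gustatory receptor gene Gr93d and glec, and the odorant-binding protein genes Obp56g and Obp56h. Their optimal signals ran from 584.1 to 797.0. All 20 sites had an entry in both replicate lists, 10 lay on the upstream side of their nearest start, and 6 held ACAAT.

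As a class the intergenic sites were slightly lower than the optimal list as a whole. Their signals ranged from 76.7 to 1609 with a median of 127.3 and quartiles of 94.5 and 200.7, and the median of all optimal peaks was 135.4, a ratio of 0.940. The ratio was 0.929 with the 7055 strongest entries of replicate 4 and 0.945 with those of replicate 1. Summits within 1 kb of a start had a median of 145.5, intronic summits at 1 to 5 kb 135.5, and intergenic summits beyond 5 kb 122.4. Of the 500 strongest optimal peaks, 25 were intergenic sites of this kind, which is 3.94% of the 634, whereas 7.09% of all optimal peaks are in that top 500. Of the 3299 summits within 1 kb of a start, 330 are in it.

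Most of these sites had an entry in both replicate lists, which the making of the optimal list from those lists favours. An entry within 100 bp was present in both replicate lists for 593 members (93.5%, 91.3 to 95.2%), in replicate 1 alone for 26, in replicate 4 alone for 15 and in neither for 0. Each replicate list has 30000 entries and includes background, so a second, stricter count was made: 425 members (67.0%) had an entry among the 7055 strongest of both replicates, beside 67.9% of all optimal peaks. The count also moves with the distance allowed: it was 72.6% within 50 bp and 98.3% within 200 bp. Among the 593, the replicate signals had medians of 65.4 and 66.3 and a Spearman correlation of 0.711, beside 0.730 for all optimal peaks. These peaks were selected on pooled signal, so the correlation describes them and is no test. The 41 members without a full pair were weaker, with a median optimal signal of 94.4, against 128.9 for the rest, and the 50 strongest members all had both.

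**Figure D1:**
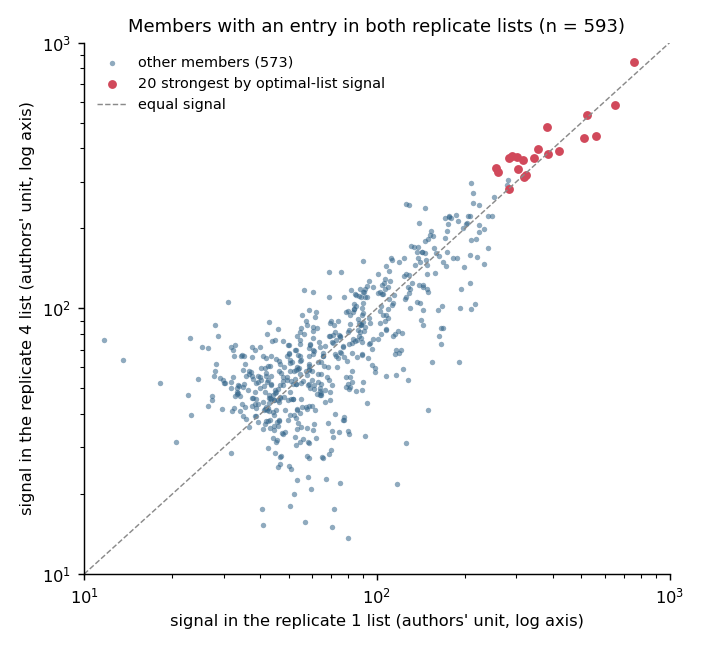
Signal of each member in the replicate 1 list (x axis) and the replicate 4 list (y axis), in the authors' unit on log axes, for the 593 members with an entry in both lists. Red points are the 20 members with the highest optimal-list signal; the dashed line marks equal signal. The points lie along the line and spread more at low signal. The 20 strongest lie at the upper end in both replicates, which their choice by optimal-list signal favours. They grade into the other members: the one ranked 21 had 281.0 in replicate 1 and 305.2 in replicate 4. The one ranked 20 had 281.8 and 280.4.

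Sites were closer to starts, and more often upstream of them, than the sequence available to them. All bases that meet the positional rule, called eligible sequence here, add up to 13.5 Mb (10.1% of the 6 arms), and held 46.8 members per Mb, beside 52.7 optimal summits per Mb over the 6 arms. Between 1 and 2 kb from a start there were 259 members, or 56.8 per Mb, with 53.0 in replicate 1 and 55.2 in replicate 4. From 2 to 3, 3 to 4 and 4 to 5 kb the optimal list had 39.5, 42.7 and 44.1 per Mb, so the density was higher in the first bin and near level after it. The excess was on the upstream side: 62.5 per Mb at 1 to 2 kb upstream, against 45.1 at 1 to 2 kb downstream and 38.0 to 47.7 in the other 6 bins.

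The nearest start had the member on its upstream side for 418 sites (65.9%, 62.2 to 69.5%), whereas 60.8% of eligible bases are upstream. With the 7055 strongest entries of replicate 4 it was 65.6%, and with those of replicate 1 it was 67.2%. Genes flanking the gap were divergent around 177 members (27.9%, 24.6 to 31.5%), in tandem around 318 (50.2%) and convergent around 139 (21.9%), and the eligible bases divided as 25.3, 52.1 and 22.3%. The flanking arrangement of the sites was thus close to that of the sequence they could occupy. Median signals by arrangement were 131.5, 122.6 and 131.3. By gap length, gaps of up to 5 kb had 61.2 members per Mb and those over 20 kb had 32.9, with 44.1 and 48.1 between 5 and 10 and between 10 and 20 kb.

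The kind of gene at the nearest start also differed. For 380 members the nearest start was that of a protein-coding gene (42.0 per eligible Mb), for 229 that of a non-coding RNA gene (58.7), and for 19 that of a tRNA gene (102). The replicates gave 40.2 and 41.2, 53.3 and 61.0, and 97.0 and 108 for replicates 1 and 4. The 19 sites near tRNA genes lay in 12 gaps. Of these sites, 5 were beside tRNA:Ile genes between hng3 and CG13898, and another 5 were beside tRNA:Phe genes between Dip-B and tal-1A. The 19 are thus not independent of each other, and much of their density comes from these places. The strongest lay 3475 bp from tRNA:Lys-CTT-1-11 between Obp56g and Obp56h and had a signal of 584.1, with 254.9 in replicate 1 and 336.1 in replicate 4. Pseudogenes were nearest for 4 members and small nucleolar RNA genes for 2. The nearest protein-coding start lay within 5 kb for 449 members, so the other 185 met the rule through the start of a non-coding gene or pseudogene. The members had 472 distinct nearest starts, and an optimal summit lay within 500 bp of 123 of these (26.1%, 22.3 to 30.2%), beside 15% of 23581 distinct annotated starts. Counted over members, 166 had such a nearest start. The difference was not tested.

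Members were unevenly spread over the arms. Arm 3L held 194 members, or 67.3 per eligible Mb, and X held 64, or 32.5. Replicate 1 gave 64.8 and 32.5 and replicate 4 gave 69.0 and 28.9 for the same arms. Arm 2L had 44.2, 3R 45.9 and 2R 38.1 per Mb, and chromosome 4, which carries Sox102F itself, had 5 members in 0.0919 Mb. X carried 18.7% of all optimal summits but 10.1% of the intergenic sites, and 3L carried 22.2% and 30.6%. The difference was smaller when each gap was counted once: 40.9 occupied gaps per Mb on 3L, 23.8 on X and 32.5 over all arms. Median signal was 145.2 on 3L and 113.6 on X.

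**Figure D2:**
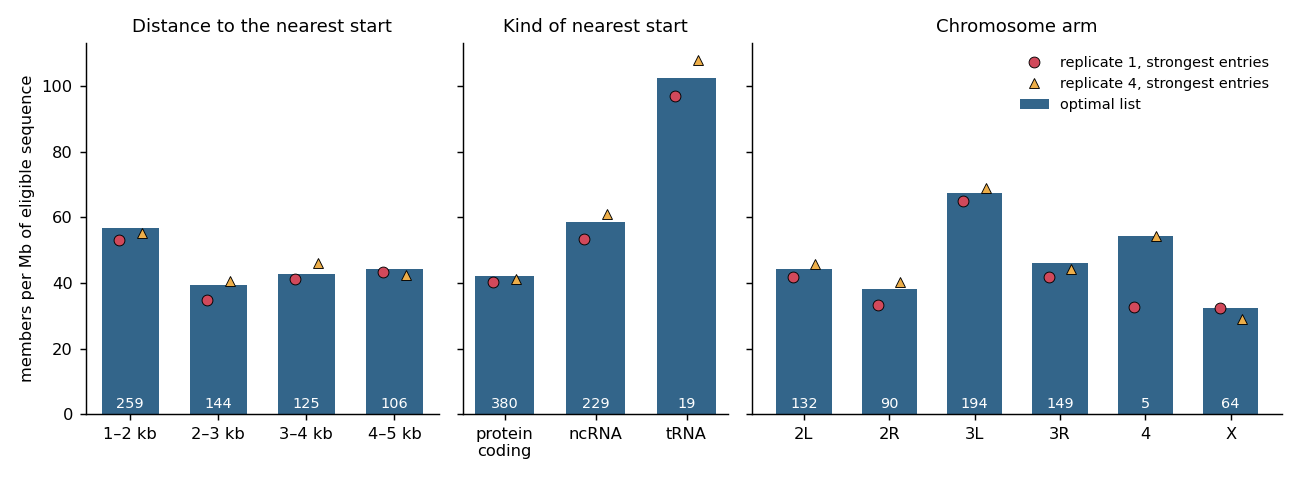
Members per Mb of eligible sequence by distance to the nearest start, by kind of nearest start and by chromosome arm. Bars are the optimal list, with the number of members in white; circles and triangles are the 7055 strongest entries of replicates 1 and 4. The first distance bin, tRNA starts and arm 3L stand highest in all 3 lists, and on chromosome 4 the replicates differ most, with 3 and 5 members.

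Many sites came in groups. The 634 members occupied 440 gaps, of which 319 held 1 member, 76 held 2 and 45 held 3 or more, up to 6. Another optimal summit lay within 1 kb of 207 members (32.6%, beside 30.7% of all optimal summits), so grouping at that scale was about as frequent as in the whole list. Of the 45 gaps with 3 or more members, 20 were on 3L and they held 77 of that arm's members. The protein-coding gene beside the most members was CG13898 on 3L, with 18 in 32.9 kb of eligible sequence, followed by its neighbour hng3, with 12 in 24.7 kb. Shorter stretches were denser, such as CG18404 with 8 in 10.4 kb and COX7AL2 with 5 in 4.81 kb. The signals of the members beside CG13898 ran from 82.4 to 1005, and 10 of them were also beside hng3. After the site of 1005 described above, the tallest members beside CG13898 had optimal signals of 404.3 (218.2 and 182.1 in replicates 1 and 4), 403.1 (239.1 and 169.4) and 332.1 (198.4 and 143.3). The 100 kb at chr3L:800001-900000 held 11 members, as did those at chr3L:11300001-11400000 and chr2L:14500001-14600000. Sequence repeated between members is not common: with windows of 301 bp around each summit, 10 pairs of members that do not overlap shared any word of 20 bases, at most 2 such words a pair.

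Other protein-coding genes with many intergenic sites beside them included regulators of development. In total 68 genes had 4 or more. The odd-skipped family gene drm had 8, with optimal signals from 78.4 to 433.0, and heca, known as headcase and needed in adult precursor cells, had 8, from 78.2 to 644.3. The RTK antagonist gene sty had 7, from 114.8 to 437.2. The homeobox gene hth had 5, from 80.6 to 131.0. The zinc finger gene salm had 5, from 78.8 to 207.2, and its neighbour salr had 4. The fork head gene slp2 had 5, from 81.5 to 150.1. The cell death gene hid had 4, from 120.4 to 505.4, and foxo, the forkhead factor of insulin signalling, had 4, from 76.9 to 301.3. The Notch ligand gene Ser, the T-box gene mid, the zinc finger gene noc and hry, the bHLH repressor gene known as hairy, had 4 each. Genes with other roles or of little known function were there too, with 11 sites at CG7320, 10 at CG6163, and 8 each at CG18404, CG3473, Reg-2 and Sf3b3. A neighbour is a position and does not show which gene a site acts on.

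By share of genes, the ecdysone, signalling and patterning lists were next to intergenic sites more often than protein-coding genes at large. Over the whole annotation, 710 of 13945 protein-coding genes (5.09%) were the nearest protein-coding gene on either side of a member. Genes in gene-dense regions have no eligible sequence beside them, and of the 5938 genes that have some, 12.0% were next to a member. The shares of lists below are over all genes of a list, so 5.09% is the value like them. The lists were described by count, by share and by members per Mb of the eligible sequence beside their genes, which takes wide gaps into account, with 46.8 per Mb as the overall value. No list was tested, the lists were chosen with earlier results of these data known, and neighbouring genes in a list can share a site. By density, Hox genes (13.2 per Mb) and muscle genes (38.3) were below the overall value. Cytoplasmic ribosomal protein genes (57.6) and glial markers (82.1) were above it. The protein-coding neighbour is often not the gene with the nearest start: of the 71 genes named from the lists, 43 had a start within 5 kb of their strongest site and 28 did not. For 12 genes the closest start lay beyond 20 kb. These were knrl, kni, SoxN, numb, vn, Dfd, Scr, dysf, comm, H15, mid and, at 108364 bp, Or67d.

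Among ecdysone response genes, 8 of 28 (28.6%) were next to a member, with 123 members per Mb, and 9 and 8 with replicates 1 and 4. The highest were Blimp-1 and hid, with signals of 682.6 and 505.4, 19054 and 8886 bp from their starts. The start nearest to the Blimp-1 site was that of Eaf6. For hid this was 250.8 in replicate 1 and 262.1 in replicate 4. ImpE2 and Eip63E, which share a site between their starts, had 301.9, with 130.8 and 172.0. Nuclear receptor genes had 4 of 21 (71.1 per Mb): knrl (394.5, replicates 210.0 and 180.2) and kni (284.4, 140.2 and 149.4), related zinc finger genes of tracheal development and wing veins, Hr38 (244.5, 89.6 and 151.4) and Eip78C (104.4, with an entry in replicate 1 alone). The sites of Hr38 and Eip78C lay 1649 and 1683 bp upstream of their starts, whereas those of knrl and kni lay 64109 and 45410 bp from their closest starts.

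The signalling pathways had values above the overall density. Notch pathway genes had 7 of 26 (26.9%, 186 per Mb), led by the E(spl) pair, ct (304.9, with 138.6 in replicate 1 and 170.6 in replicate 4) and numb (193.9, 118.2 and 82.5), which encodes an antagonist of Notch. The closest start of numb lay 41133 bp from that site, and the nearest start of any gene there was that of Gdi. Wnt genes had 7 of 28 (25%, 170 per Mb), led by the receptor gene fz (313.9, 215.7 and 103.8), lgs (253.5, 167.9 and 84.7), the inhibitor gene nkd (205.5, 112.4 and 103.0) and the receptor gene fz3 (177.0, 89.5 and 89.1). Hippo pathway genes had 6 of 18 (33.3%, 157 per Mb): after ex came Myc (320.5, 172.3 and 144.4) and the atypical cadherin genes ft (274.4, 166.4 and 102.0) and ds (202.7, 121.4 and 81.1). EGFR genes had 4 of 22 (126 per Mb): sty (437.2, 232.1 and 199.5), the ETS repressor gene aop (259.7, 123.9 and 132.4), the ligand gene vn (171.1, 87.7 and 86.9) and edl (91.7, 36.6 and 56.8). Dpp and Hedgehog genes had 4 of 23 (127 per Mb): the inhibitory Smad gene Dad (249.6, 131.4 and 124.8), the ligand genes hh (120.6, 54.5 and 66.4) and dpp (90.0, 43.2 and 46.1), and the receptor gene ptc (94.4, with 64.9 in replicate 4 and no entry in replicate 1). The JNK and AP-1 list had 2 of 14, kay and the bZIP gene Atf3 (428.1, 222.9 and 205.6). Its 186 per Mb rests on 0.0215 Mb of eligible sequence and 4 members. The insulin and TOR list had 2 of 18, foxo (301.3, 209.5 and 99.1) and Sesn (87.7, with 36.8 in replicate 1 and no entry in replicate 4); its 203 per Mb rests on 0.0247 Mb of eligible sequence and 5 members. Cell death genes had 2 of 15 (84.5 per Mb), hid and the inhibitor gene Diap1 (79.5, with 36.9 in replicate 4 and no entry in replicate 1).

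Genes that pattern tissues were also next to intergenic sites. The median signal was 108.6 for the heart and mesoderm list, 105.5 for the neuroblast list, 128.7 for the eye list and 131.9 for the tracheal list. Imaginal disc patterning genes had 15 of 31 (48.4%, 32.0 to 65.2%) with 33 members, or 119 per Mb, and a median signal of 99.8, below the 127.3 of all members. The tallest were beside drm (433.0, 207.7 in replicate 1 and 222.2 in replicate 4), the LIM homeobox gene tup (270.9, 128.4 and 133.8) and the shared site of odd and sob (266.9, 147.9 and 118.8). Replicate 1 gave 11 genes of this list and replicate 4 gave 15. Heart and mesoderm genes had 10 of 22 (45.5%, 77.9 per Mb), led by the T-box genes H15 and mid, which share a site (216.3, 154.2 and 62.8), Doc1 (209.9, 90.9 and 118.0) and sna (182.9, 78.3 and 96.7). Tracheal genes had 8 of 17 (47.1%, 92.0 per Mb), with knrl and kni, the bHLH-PAS gene dysf (221.7, 110.1 and 108.4) and the claudin gene sinu (131.9, with 99.6 in replicate 1 and no entry in replicate 4). Neuroblast genes had 7 of 24 (29.2%, 89.3 per Mb), with numb, sna, chinmo (159.9, 96.2 and 61.4) and esg (129.1, 72.9 and 59.997). Eye genes had 4 of 18 (66.7 per Mb): the proneural gene ato (221.5, 103.9 and 113.0), Optix (186.2, 84.8 and 102.1), sens (128.7, 60.6 and 69.6) and the Pax6 gene toy (98.7, 40.2 and 59.8). Sox family genes had 2 of 8 (93.5 per Mb), Sox100B (170.2, 88.0 and 86.7) and SoxN (114.4, 53.5 and 60.3). The closest start of SoxN lay 35270 bp from its site, where the nearest start was that of CG32986. The Sox100B site lay 2658 bp from that gene, and the nearest start there was that of dco.

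The remaining lists had from 1 to 10 members each, with densities on both sides of the overall 46.8 per Mb. Axon guidance genes had 3 of 26 (52.0 per Mb): robo2 (376.0, 220.8 and 156.4), NetB (264.9, 112.7 and 152.6) and comm (82.6, with 75.3 in replicate 4 alone). Glial markers had 1 of 15, nrv2 (110.3, 38.4 and 48.6; 82.1 per Mb), and muscle genes 2 of 26, kon (111.7, 46.3 and 63.1) and Act87E (99.2, 58.2 and 23.3; 38.3 per Mb). Hox genes had 2 of 8 (25%), Dfd and Scr, through 1 member between them (96.0, 37.3 and 57.7), or 13.2 per Mb of 0.0759 Mb; with replicate 1 alone 1 Hox gene was next to a site, with replicate 4 alone 2 were, and 0 were in all 3 lists. Chemosensory receptor genes had 8 of 179 (4.47%, 17.1 per Mb), with Gr93d, Gr93a (200.8, 81.3 and 117.6), the distant Or67d (160.2, 50.6 and 39.8) and Gr89a (149.95, with 94.9 in replicate 1 and no entry in replicate 4). Cuticle protein genes had 4 of 123 (3.25%, 36.9 per Mb): Cpr51A (306.4, 134.2 and 170.3), Cpr12A (178.3, 86.5 and 91.3), Cpr72Ea (177.8, 79.5 and 97.7) and Cpr35B (91.3, 39.9 and 50.2). Cytoplasmic ribosomal protein genes had 6 of 92 (6.52%, 57.6 per Mb), led by RpLP0 (282.3, 135.0 and 145.0), RpL13 (188.5, 107.7 and 83.8), RpL22 (177.0, at the site shared with fz3) and RpL22-like (120.3, 63.2 and 56.7). That share was near the 5.09% of all protein-coding genes. Of the 92 genes, 34 had eligible sequence beside them, and the density was above the overall value.

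**Figure D3:**
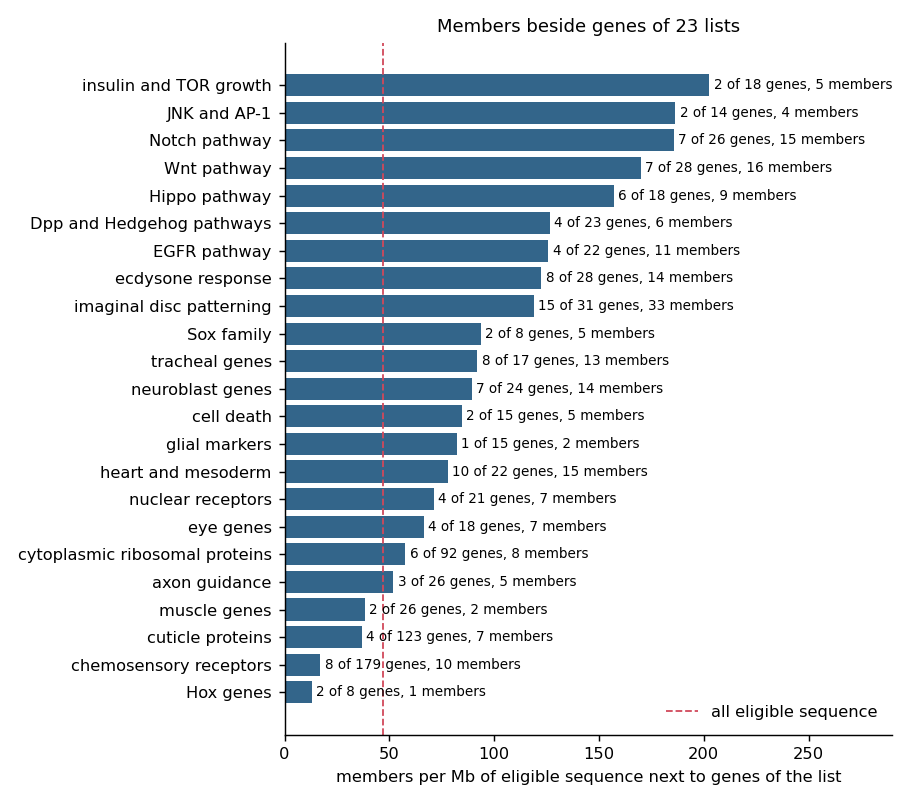
Members per Mb of the eligible sequence next to the genes of each of 23 lists (bars), with the number of genes next to a member and of members written beside each bar; the dashed line is the value over all eligible sequence, 46.8. Most lists stand above the line, the signalling, ecdysone and disc patterning lists but also those of ribosomal protein, glial and axon guidance genes. Only Hox, chemosensory, cuticle and muscle genes stand below it. Bars from few members, such as the insulin list with 5, carry wide counting error.

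The SOX core word was more frequent at the summits of these sites than beside them. ACAAT, on either strand and within 50 bp of the summit, was present in 215 members (33.9%, 30.3 to 37.7%), against 25.6 and 26.3% in windows of the same 101 bp centred 500 bp to the lower and higher side, a ratio of 1.31 to their mean of 25.9%. The shares were 33.3% at the summit and 25.8% in the flanks with replicate 1, and 33.0% and 26.1% with replicate 4. Windows of eligible sequence outside peaks, taken at every 200th eligible base, held the word in 27.1%. The word was most frequent in the bin from 30 to 10 bp on the lower side of the summit, at 5.36 per kb and region, and for all optimal summits that bin had 3.83. Of the 215 members with the word, 109 (50.7%) had the nearest copy within 20 bp of the summit. The window reaches 50 bp to each side, so part of that count is set by its width. Closeness to the summit was not tested.

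Other classes of summit held it less often or about as often. The share was 26.2% within 1 kb of starts (flank ratio 1.05), 31.6% in introns at 1 to 5 kb (1.30), 25.9% in intergenic sequence beyond 5 kb (1.05) and 29.0% over all optimal summits (1.16). Differences between classes were not tested. Among weaker entries of the pooled list that meet the same positional rule but not the optimal threshold, it was 27.3% of 3087. Within the members the share was 38.9% at 2 to 3 kb and 22.6% (15.7 to 31.5%) at 4 to 5 kb, and 39.0% between divergent, 34.6% between tandem and 25.9% between convergent genes. With the members cut into 4 bins of signal it was 33.3, 31.0, 32.3 and 39.0% from weakest to strongest, and the intervals overlap (31.8 to 46.7% for the strongest bin). Members without the word had a median signal of 124.6, those with 1 word 128.9 and the 38 with 2 words 136.0. In replicate 1 the medians in the same order did not rise (66.5, 63.8 and 64.5), and in replicate 4 they were 64.8, 68.5 and 76.4. The quartiles overlap, from 94.4 to 188.1 without the word and from 110.6 to 201.4 with 2 words.

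Most sites, 419 of 634, had no ACAAT in the window. Longer SOX-like words were rarer: AACAAT was in 14.5% of summits and 10.1% of flanks (ratio 1.44). ACAAAG, a word shared by SOX and TCF proteins, was in 8.83% and 5.91% (1.49). Eligible windows outside peaks held AACAAT in 11.4% and ACAAAG in 7.71%, so the flanks of members were low in both. Over all optimal summits the ratios were 1.17 and 1.09. The GATA word AGATAA had a ratio of 1.62 (8.20% of summits), beside 1.51 over all optimal summits. The homeodomain word TAATTA had 1.33, beside 1.32 over all optimal summits. TAATTA was in 8.83% of summits, 6.62% of flanks and 8.16% of eligible windows outside peaks. The AP-1 word TGANTCA had 1.39, from 16 members, beside 1.04 over all optimal summits. Words below the flank included the E-box CAGCTG (1.58% of summits, 4.10% of flanks, ratio 0.385) and the CA repeat CACACACA (0.364). Others were the Suppressor of Hairless word TGGGAA (0.640), the TEAD word CATTCC (0.769), and GAGAG, bound by GAGA factor (9.31% and 11.3%, ratio 0.825). Over all optimal summits the ratios in the same order were 0.799, 0.461, 0.794, 0.668 and 0.994. By base composition, 6-letter words with 3 G or C letters had a median ratio of 0.792 in members, and those with 4 had 0.531. At starts GAGAG stood at 17.3% (ratio 1.17). The promoter words TATCGATA (DREF) and GGTCACAC were in 2 and 1 members, and of the rest CAGGTAG (Zelda) was in 2, CGGAAGT (ETS) in 3, the Grainyhead word AACNGGTT in 4, AACCACA (Runt) in 7 and the nuclear receptor word AGGTCA in 9, too few to rank.

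**Figure D4:**
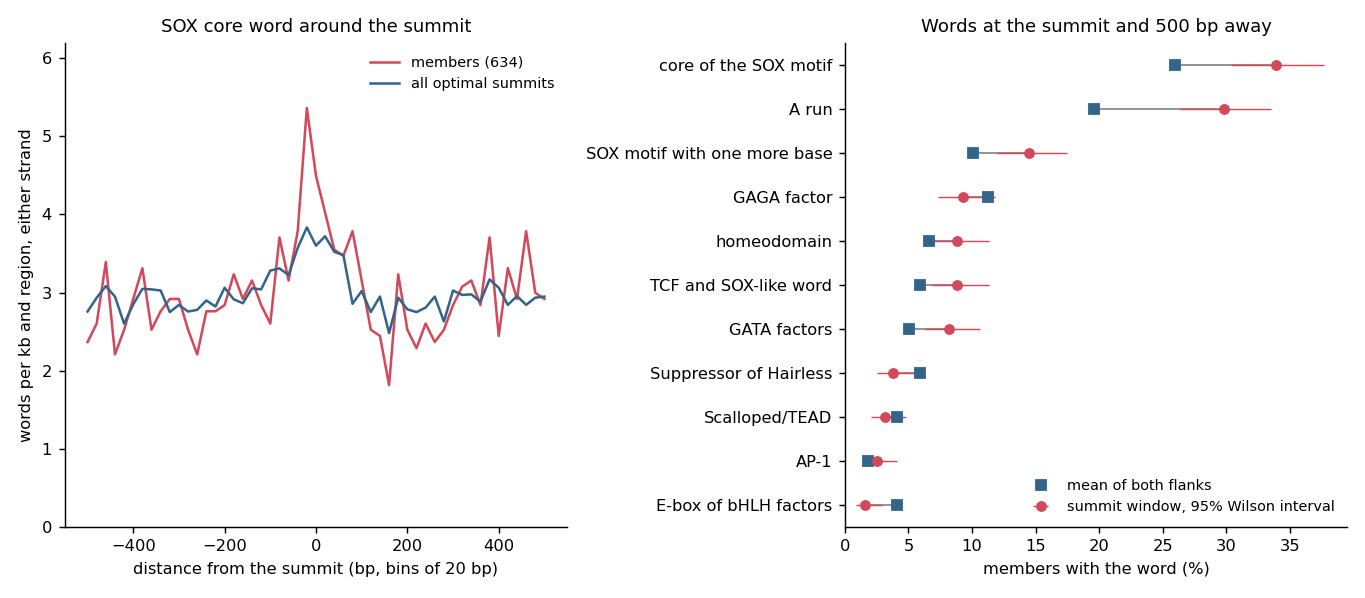
Left, the SOX core word per kb and region, on either strand, by distance from the summit in bins of 20 bp, for the 634 members and all 7055 optimal summits. Right, share of members with each word in the 101 bp summit window (red, 95% Wilson interval) and the mean of the 2 flanks (blue), for words found in at least 10 summit windows. The members' line rises to 5.36 next to the summit, and the SOX core word and the A run have the highest shares.

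Summit windows were richer in A and T than their flanks. The summit windows of members were 66.3 ± 8.41% A or T (SD over regions, n = 634), against 57.0% in their flanks, 59.1% in eligible windows outside peaks, 60.7% at the weaker pooled entries and 64.3% over all optimal summits. Intronic summits at 1 to 5 kb had 66.2%, and intergenic summits beyond 5 kb had 66.6% with 55.6% in their flanks, where the flank ratios of ACAAT were 1.30 and 1.05. From the weakest to the strongest of the 4 signal bins, AT content was 64.5, 65.5, 67.6 and 67.8%. The run AAAAAA had a ratio of 1.52, above that of ACAAT. For 6-letter words found in at least 20 flank windows, the median ratio of summit to flank was 1.68 with no G or C. It was 1.61 with 1 such letter, 1.24 with 2, 0.792 with 3, 0.531 with 4, 0.397 with 5 and 0.283 with 6. AACAAT, with 1 such letter, was below the median of its class, and ACAAAG, with 2, was above that of its own. The part of base composition in the share of ACAAT was not tested.

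The 6-letter words that stood out most at these sites contained no ACAAT. Of 202 words present in at least 60 members, 114 had a ratio above 1.5. ATAGAT, or ATCTAT on the other strand, led with 61 members (9.62%) against 2.52% of flanks, a ratio of 3.81, beside 1.63 over all optimal summits. AATCTA was next, in 66 members (10.4%, ratio 3.38, 1.74 over all optimal summits), followed by ATATTA (2.80), GTAATA (2.74) and ATCTTA (2.68). The flanks of members were low in the 2 leading words. Eligible windows outside peaks held ATCTAT in 4.90% and AATCTA in 4.79%, against 2.52% and 3.08% of member flanks. Over all optimal summits the 2 words were in 7.04% and 7.43% of summit windows. ATCTAT stood at 10.3% of summits and 3.03% of flanks with replicate 1, and at 7.22% and 2.90% with replicate 4. These words were picked from the same windows they are counted in, so their ratios are descriptions.

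**Figure D5:**
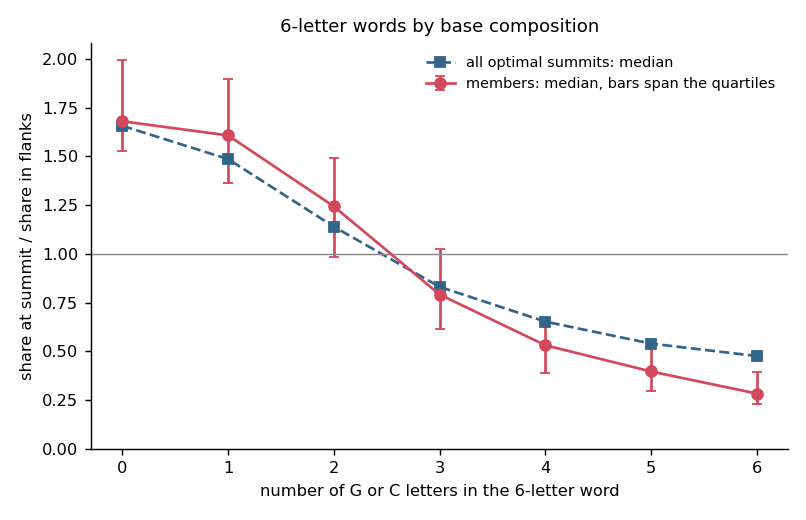
Ratio of the share of windows with a 6-letter word at the summit to the share in the flanks, by the number of G or C letters in the word, for words found in at least 20 flank windows. Red points are medians over words for the members, with bars from the lower to the upper quartile; blue squares are medians for all optimal summits. Both fall from about 1.7 for words of A and T alone to under 1 from 3 letters of G or C on.

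The distance limits cut through a continuous range of sites. Just outside 1 kb, members at 1005, 1011 and 1016 bp had signals of 137.6, 139.6 and 247.5, and the summits just inside 1 kb, at 992, 985 and 983 bp, had 149.3, 236.9 and 137.8. Members at 4990, 4985 and 4974 bp had 237.7, 93.8 and 94.1, and summits just beyond 5 kb, at 5003, 5020 and 5036 bp, had 83.8, 95.5 and 80.9. Of the 634 members, 3 lay in annotated transposable elements.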

How the data were processed

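Sox102F-GFP ChIP-seq of 2 replicates was deposited as peak lists on dm6 and dm3; the dm6 lists were used. The signal of each peak is the authors' deposited value, and the summit is another deposited value, an offset from the peak start. Per the labels, chromatin was sonicated. Per the deposited text records, alignments and a control went into each list, and the pooled and replicate lists into the optimal one. Not given in the sources used here: aligner, peak caller, signal scaling and threshold. The lists hold no read counts, so depth is unknown.

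Summits (1-based) on 6 arms were placed on Ensembl release 115 (BDGP6.54) with Python 3.11.15, numpy 2.4.6 and pandas 2.3.3. Sequence came from NCBI RefSeq release 6, the dm6 assembly; peak ends lie inside its arm lengths. Starts are annotated transcript starts. The side is that of the nearest start. Replicate entries within 100 bp counted as shared. Replicates alone were taken as their 7055 strongest entries. Words were counted on either strand in 101 bp windows. The annotation lacks 21 of the listed gene symbols, which were dropped. Functions were tested on simulated data.

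Named are the 20 strongest members and their protein-coding neighbours, genes with 4 or more members (a selection; 1 gene is not reported here), up to 4 genes per list by signal, and the 3 members nearest each limit. The members, lists and words were chosen with earlier results of these data known. Alternatives covered each replicate alone, stronger peaks, protein-coding genes alone, other distance limits, tolerances, windows and words; gene lists with each replicate alone were added after seeing the data.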

Additional observations from a re-analysis of the deposited data

How the results depend on the processing

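With the 7055 strongest entries of each replicate alone in place of the optimal list, members numbered 594 to 637, 65.6 to 67.2% lay upstream, 26.7 to 30.0% lay between divergent genes, 33.0 to 33.3% held ACAAT, the signal ratio was 0.929 to 0.945 and the density 43.9 to 47.1 per Mb. Genes of any list next to a member numbered 92 to 103, against 103. In the 3527 strongest optimal peaks there were 292 members, 21.6 per Mb, with 67.1% upstream, 34.6% with ACAAT, a signal ratio of 0.927 and 96.9% in both replicate lists. With protein-coding genes alone as bodies and starts, 71.9% lay upstream, 34.3% between divergent genes, 33.0% held ACAAT and the density was 50.2 per Mb. With a lower limit of 500 bp, these were 69.5% upstream, 32.6% with ACAAT and 49.7 per Mb. With an upper limit of 10 kb, 62.0% lay upstream, 25.3% between divergent genes and 32.0% held ACAAT. The SOX core word was in 20.03% of windows of 25 bp to each side and in 53.0% of windows of 100 bp to each side, and in 101 bp windows the SOX word with 1 more base was in 14.5% and the TCF and SOX-like word in 8.83%, since fewer bases or longer words give fewer matches. An entry in both replicate lists was found for 72.6% at a tolerance of 50 bp and for 98.3% at 200 bp. Of all alternative values, 22 were within the replicate spread, the interval or 1.5 times the count, and 26 moved beyond it. All alternative shares with ACAAT were among those that moved, where the SD of the 2 replicates was 0.259 points.

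No paired analysis was possible because there is only 1 group. The 2 replicates are biological per the labels, and the spread between them is given as both values. Of the 41 members without an entry within 100 bp in both replicate lists, 11 lacked one within 200 bp. Depth is unknown, so a missing entry does not show that a site is absent.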

Other observations

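A word with more G and C than the leading AT-rich words also stood at the summits of the intergenic sites. Of 274 words of 8 letters present in at least 15 members, CACTGAAA had the highest ratio, with 15 members against a mean of 2 in the flanks, and CACTGAGA had the next but one, with 16 against 2.5. The joint form CACTGANA, chosen after these values were seen, was in 34 members (5.36%, 3.86 to 7.40%) and 1.10% of flank windows, a ratio of 4.86. It was in 1.57% of eligible windows outside peaks. Its 34 members lay in 34 different gaps, with 15 on 3L, 12 on 3R, 5 on 2L, 1 on 2R and 1 on X. With replicate 1 alone the shares were 5.56% at summits and 1.01% in flanks, and with replicate 4 alone 4.55% and 1.33%.

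CACTGANA was not limited to these sites: its ratio was 2.16 at starts, 2.62 in introns at 1 to 5 kb, 2.82 in intergenic sequence beyond 5 kb, 2.36 at the weaker pooled entries and 2.54 over all optimal summits. The shares of summits with it, in the same order, were 3.30, 3.85, 5.45, 4.24 and 3.76%. Intergenic summits beyond 5 kb thus held it about as often as members (5.36%), and their flanks held it in 1.93%, against 1.10% for members. Members with it had a median signal of 123.8, those without 127.4. The strongest carriers lay between CG18404 and heca (413.1, with 202.1 in replicate 1 and 208.0 in replicate 4), between CG10357 and CG14974 (401.2, 145.8 and 239.0) and beside noc (319.6, 163.2 and 157.4). No protein is assigned to this word here, and no difference between classes was tested.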
